A study of Mus musculus with 12 samples.

Results

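Adipocytes formed in medium from p53-intact breast cancer cells were compared with the preadipocytes they started from. The 6 libraries of the comparison, 3 per group, were chosen by their labels from the 12 of the series, and all genes of the count table were taken. Mouse 3T3-L1 cells, an established embryonic fibroblast line used as a model of fat cell formation, were profiled by MARS-seq, a 3′-end method in which molecular barcodes mark each transcript, from 30 ng of RNA per sample. All 4 groups of the series are 3T3-L1 cells labelled as wild-type in genotype. The p53 status is that of the cancer cells whose medium was used.

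The preadipocyte group (replicates 4 to 6) was undifferentiated and kept in medium with 10% calf serum. The WT_CM group (replicates 1 to 3) was induced 2 days after confluence with 0.5 mM IBMX, a phosphodiesterase inhibitor, 1 µM dexamethasone, a glucocorticoid, 1 µg/mL insulin and 2 µM rosiglitazone, an agonist of PPARγ. Induction lasted 2 days in 10% fetal bovine serum, insulin alone was given for 2 more days, and maintenance medium followed. At each step, filtered conditioned medium of WEA cells with intact p53 made up an equal part of the medium. The regular_diff group (replicates 4 to 6), differentiated with the same inducers and no conditioned medium, is used here as a second reference. The KO_CM group (replicates 1 to 3) had the same inducers with medium of p53-knockout WEA cells. It enters the fit and its shared spread, but no comparison here.

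The groups have limits as a model. Differentiation, serum type, conditioned medium and the set of replicate numbers change together between preadipocyte and WT_CM libraries and cannot be told apart. Confluence and time in culture are not given for preadipocytes. No group used here received an equal part of unconditioned medium, and the replicate numbers of WT_CM and regular_diff differ too. Against regular_diff, a weaker inducer mix, products of the cancer cells and the set of replicate numbers therefore cannot be told apart. Whether the 3 libraries of each group are separate cultures is not in the labels. A p-value here reflects spread between libraries alone, shared over all 4 groups, which may be technical. KO_CM libraries were less alike, with a mean correlation to their other replicates of 0.930 to 0.944, against 0.978 to 0.980 in WT_CM.

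As background, preadipocytes become fat cells when the nuclear receptor PPARγ and the factor C/EBPα switch on genes of lipid uptake, synthesis, storage and secretion, while matrix and cytoskeletal genes are turned down. Fat cells also take part in inflammation. The acute phase response raises secreted proteins such as haptoglobin, largely through cytokine receptors of the gp130 family, the factor STAT3 and C/EBP factors. Interferons act through other STAT factors that bind the interferon-stimulated response element.

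Total counts were 1458452 to 1836626 in preadipocyte and 1758814 to 2025317 in WT_CM libraries, similar in depth, and 1387854 to 1801316 in regular_diff libraries. Levels are given as CPM, counts scaled to a common library size with TMM factors, and changes as log2 fold changes ± SE, WT_CM minus preadipocyte unless another pair is named. Each SE was derived from the edgeR test, as the size of the change over the square root of its F statistic. It is approximate, above all where counts are few. The labelled cell types were checked with marker lists. The summed level of 8 adipocyte markers was 187, 672 and 211 CPM in preadipocyte replicates 4, 5 and 6, and 33871, 33618 and 33039 CPM in WT_CM replicates 1, 2 and 3. Preadipocyte replicate 5 thus stood above the other preadipocyte libraries for adipocyte genes. The summed level of 8 fibroblast markers was 21301 to 22352 CPM in preadipocyte and 13153 to 13676 CPM in WT_CM libraries. Of 10 macrophage and leukocyte markers, 2 were in the table, with a sum of 7.51 to 11.8 CPM in preadipocyte and 5.63 to 10.1 CPM in WT_CM libraries; Ptprc and Adgre1 were not in the table. Of 8 endothelial markers 1 was in the table, at 4.50 to 7.78 and 7.12 to 9.21 CPM. Of 14 epithelial markers 5 were in the table, all keratins, with a sum of 7.46 to 17.5 CPM in preadipocyte, 39.9 to 63.5 CPM in WT_CM and 36.1 to 40.7 CPM in regular_diff libraries, while Epcam and Cdh1 were not in the table; their part in the results was not tested.

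WT_CM cells carried a broad adipocyte programme at levels far above those of preadipocytes, and with it a strong acute phase pattern. Most interferon-stimulated, contractile and fibrillar matrix genes, and 6 of 11 chemokines, were lower than in preadipocytes. Inflammatory genes thus split, with 14 of 18 acute phase genes and 9 of 15 genes of the JAK, STAT3 and feedback list higher. Of 9519 genes tested, 4485 were called, meaning a Benjamini-Hochberg adjusted p below 0.05 in edgeR's quasi-likelihood test, which is 47.1% of the genes tested. Of these, 2195 were higher in WT_CM (23.1%) and 2290 lower (24.1%), and 2117 changed at least 2-fold (22.2%), 1141 higher (12%) and 976 lower (10.3%). Scaling by library size alone moved the median log2 change of all genes from -0.04 to -0.18 and gave 1803 genes higher and 2982 lower. In the authors' deposited table the number under that threshold was 3940, with 2130 of them higher in WT_CM and 1810 lower. Since so many genes were called, the count of called genes in a list is set below against these shares. Where 0 genes of a list are given as called in a direction, 0 were also called by DESeq2 and 0 stood at an unadjusted p under 0.05 in that direction by edgeR or DESeq2. All values are from bulk samples, in which fewer cells of a type and less RNA per cell cannot be told apart.

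**Figure D1:**
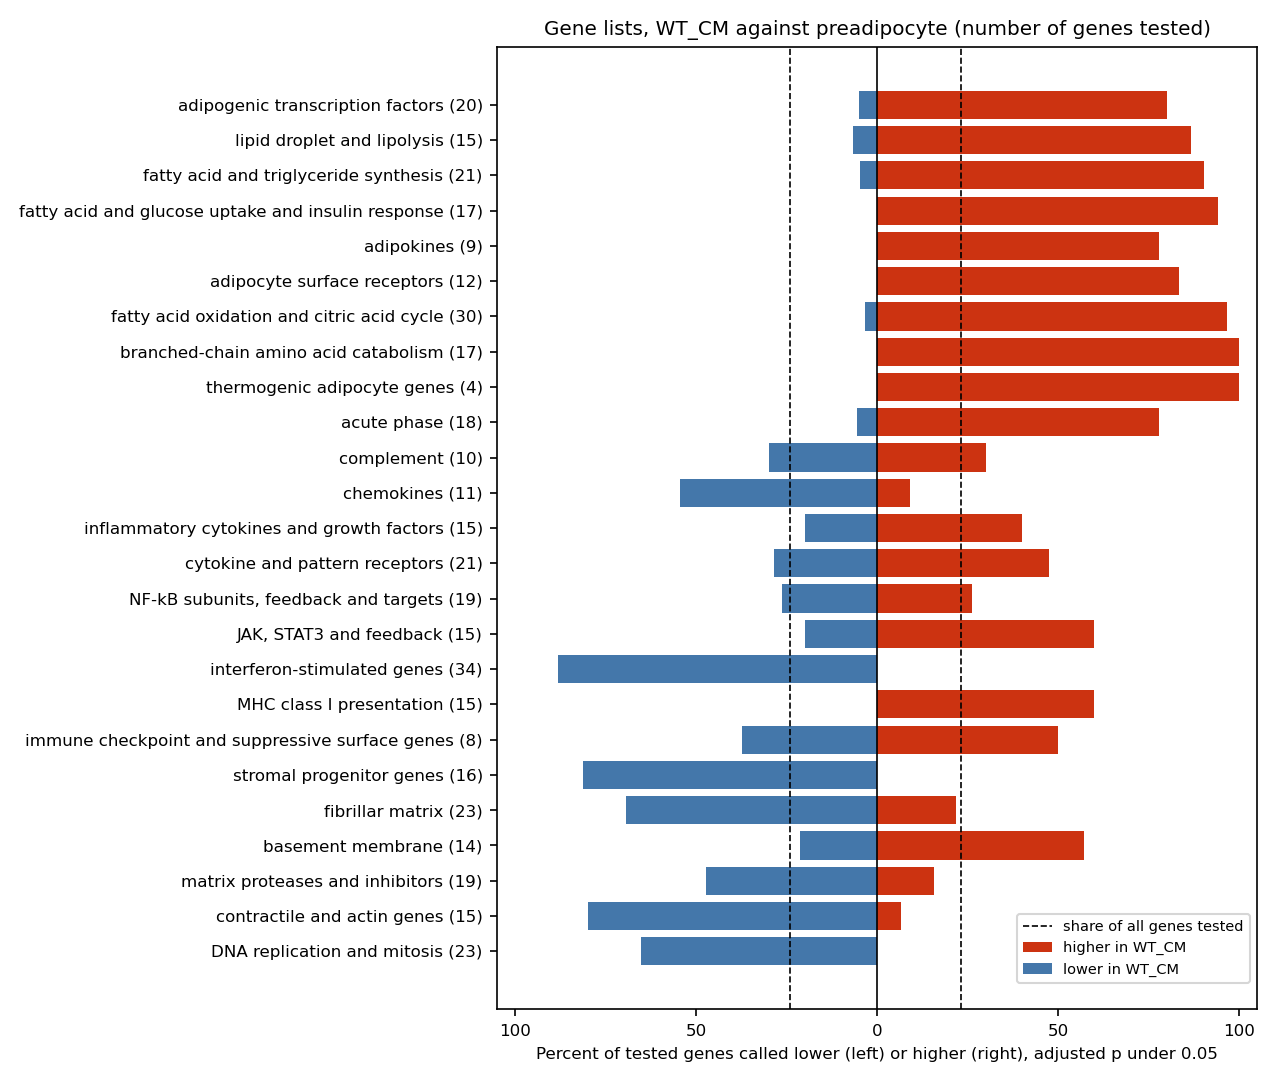
Share of the tested genes of each list (number tested in brackets) called higher (right, red) or lower (left, blue) in WT_CM than in preadipocyte libraries, in percent. Dashed lines mark the share among all 9519 genes tested, 23.1% higher and 24.1% lower; the adipocyte lists and the acute phase list reach far to the right and the interferon-stimulated list far to the left.

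Adipocyte genes came first. The 9 adipocyte lists held 181 genes, of which 155 were in the table and 143 had enough counts to be tested; genes silent in both groups drop out at that step. Of the 143, 129 were higher in WT_CM and 4 lower, with a median log2 change of 1.97 against -0.04 over all genes tested. Without preadipocyte replicate 5 the counts were 128 and 4. Compared with regular_diff, 52 of the 143 were lower in WT_CM and 6 higher, where 4.18% and 5.73% of all genes were.

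Transcription factors of adipogenesis rose, with 16 of 20 tested genes higher and 1 lower (median 1.67). Pparg, which encodes PPARγ, the master regulator of adipogenesis, stood at 43.5, 56.0 and 48.0 CPM in preadipocyte replicates 4, 5 and 6 and at 771, 785 and 743 CPM in WT_CM replicates 1, 2 and 3. The groups were far apart, with a log2 change of 3.96 ± 0.13. Cebpa, its partner factor, stood at 13.5, 11.2 and 13.0 and 328, 314 and 324 CPM, again without overlap, and rose by 4.67 ± 0.14. Klf15, a glucocorticoid-responsive factor of late adipogenesis, rose from 1.00 ± 0.749 to 82.8 ± 11.2 CPM (mean ± SD, n = 3) and stood at 217 ± 12.3 CPM in regular_diff. Zbtb16, a zinc-finger factor, rose by 4.22 ± 0.34. Mlxipl, a glucose-sensing factor, had 0 counts in preadipocytes and was at least 9.90-fold higher when the whole group is set at 3 counts, the floor used throughout. Klf4, a factor of early adipogenesis, was the member that fell, by -1.30 ± 0.14, from 124 ± 15.6 to 50.4 ± 4.23 CPM. The log2 values of these genes had Benjamini-Hochberg adjusted p-values no larger than 1.24e-08 in edgeR's quasi-likelihood test.

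Lipid droplet and lipolysis genes gave 13 of 15 higher and 1 lower (median 4.17). Plin1, the coat protein that guards fat droplets, had 2, 2 and 0 counts in the preadipocyte libraries and 579, 476 and 476 in the WT_CM libraries, a log2 change of 8.37 ± 0.23. Every WT_CM library thus held abundant Plin1 while the preadipocyte libraries held next to none. Cidec, which enlarges droplets, had 5, 37 and 6 counts in preadipocytes and 4944, 4008 and 4308 in WT_CM, with replicate 5 highest among the preadipocytes. Its change was 8.01 ± 0.53, and 9.57 ± 0.17 without that replicate. G0s2, an inhibitor of the lipase ATGL, rose by 7.06 ± 0.38 (8.06 ± 0.17 without replicate 5). Aqp7, the glycerol channel, had 0 counts in preadipocytes and was at least 61.6-fold higher; other genes share 15.6% of the stretches searched at its 3′ end, so its count is uncertain. Faf2, a factor of protein quality control at the endoplasmic reticulum, was the member called lower (-0.38 ± 0.15, adjusted p 0.0386 by edgeR), and that call was lost without any 1 of the WT_CM libraries or preadipocyte replicate 5.

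Fatty acid and triglyceride synthesis gave 19 of 21 tested genes higher and 1 lower (median 2.65). Gpd1, which makes the glycerol backbone, stood at 4.00, 33.0 and 3.89 CPM in preadipocytes and 2749.8, 2315 and 2474 CPM in WT_CM, with a change of 7.56 ± 0.60 (9.26 ± 0.17 without replicate 5). Thrsp, a regulator of fat synthesis, rose from 0.838 ± 0.947 to 159 ± 13.5 CPM, by 7.53 ± 0.27 (6.86 ± 0.27 without replicate 4; count ratio without replicate 5 565, 101.1 to 22323), and stood much higher, at 841 ± 54.9 CPM, in regular_diff. Acsl1, which activates fatty acids, rose by 6.05 ± 0.42 (6.93 ± 0.15 without replicate 5). Pck1, the key enzyme of glyceroneogenesis, had 0 counts in preadipocytes and 35, 30 and 27 in WT_CM, at least 29.4-fold higher. Elovl6, a fatty acid elongase, was the member that fell, by -1.65 ± 0.42 (adjusted p 0.00188 by edgeR); it was not called without preadipocyte replicate 4, and other genes share 11.2% of its 3′ stretches. Against regular_diff 11 of the 21 were lower in WT_CM, where 4.18% of all genes were.

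Genes of uptake and insulin response gave 16 of 17 higher and 0 lower (median 2.54). Fabp4, the fatty acid carrier of adipocytes and one of the most counted genes here, stood at 43.0, 351 and 61.0 CPM in preadipocytes and 15938, 16699 and 16123 CPM in WT_CM. Replicate 5 again stood highest among the preadipocytes, and all 3 WT_CM libraries stood far above it. The change was 6.75 ± 0.82, and 8.28 ± 0.27 without replicate 5. Lpl, the lipase that frees fatty acids from lipoproteins, rose by 3.71 ± 0.14. Slc2a4, the insulin-responsive glucose transporter GLUT4, had 0, 5 and 0 counts in preadipocytes and 421, 333 and 335 in WT_CM, a change of 7.58 ± 0.32. All of its preadipocyte counts came from replicate 5, without which it was at least 239-fold higher; without replicate 4 the change was 6.91 ± 0.30. Trarg1, a partner of GLUT4 vesicles, rose by 6.32 ± 0.23. Cd36, the fatty acid translocase, had a count ratio of 163 (95% interval from counting 44.9 to 1354) and varied among WT_CM libraries, at 67.0, 83.7 and 39.7 CPM; all its preadipocyte counts came from replicate 4, without which it was at least 66.6-fold higher. The log2 values had Benjamini-Hochberg adjusted p-values no larger than 0.000144 in edgeR's quasi-likelihood test for Plin1, Cidec, G0s2, the synthesis genes that rose and the uptake genes.

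Adipokines, the secreted proteins of fat cells, gave 7 of 9 higher and 0 lower, with a median of 6.25, or 3.44 with the 1 member at 0 counts in preadipocytes set at its floor. Adipoq, adiponectin, stood at 6.51, 80.2 and 7.13 CPM in preadipocytes and 6551, 6869 and 6086 CPM in WT_CM, and Cfd, adipsin, at 6.01, 60.3 and 5.19 CPM and 5514, 5014 and 5537 CPM. Replicate 5 was 11.8 times the mean of the other preadipocytes for Adipoq and 10.8 times for Cfd, and all WT_CM libraries were far above it. Adipoq rose by 7.73 ± 0.83 and Cfd by 7.84 ± 0.76; without replicate 5 the changes were 9.86 ± 0.16 and 9.85 ± 0.17. Retn, resistin, rose by 6.88 ± 0.54 and Rarres2, the chemoattractant chemerin, by 7.23 ± 0.49 (8.73 ± 0.21 and 8.28 ± 0.15 without replicate 5). Rarres2 stood at 3142 ± 99.0 CPM in WT_CM and 1751 ± 74.7 CPM in regular_diff, without overlap but with a difference that was not called (adjusted p 0.225 in the quasi-likelihood test of edgeR). Without preadipocyte replicate 5, which enters the shared estimate of the spread, it was called, with an adjusted p of 1.4e-09 in the same edgeR test.

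Receptors of the adipocyte surface gave 10 of 12 higher and 0 lower, with a median of 6.29, or 4.59 with 3 members at 0 counts set at their floor. Hcar2, the receptor for nicotinic acid and ketone bodies, had 0 counts in preadipocytes and 171, 150 and 149 in WT_CM, at least 150.1-fold higher. Hcar1, the lactate receptor, had a count ratio of 422 (95% interval from counting 75.3 to 16686), and Adrb3, the β3-adrenergic receptor, one of 416 (95% interval from counting 74.2 to 16459). Ffar2, a receptor for short-chain fatty acids, had a ratio of 297 (95% interval from counting 81.9 to 2458). These intervals cover counting error only. The single preadipocyte counts of Hcar1 and Adrb3 and both of those of Ffar2 came from replicate 5. Without it Hcar1 was at least 96.6-fold higher, Adrb3 at least 95.3-fold higher and Ffar2 at least 136-fold higher. Without replicate 4 their ratios were 258 (46.1 to 10210.0), 254 (45.4 to 10071) and 182 (50.1 to 1504).

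Mitochondrial genes of fuel breakdown rose in all tested members of both lists but Cpt1a. Fatty acid oxidation and the citric acid cycle gave 29 of 30 higher and 1 lower (median 1.22), and catabolism of branched-chain amino acids 17 of 17 higher (median 1.66). Acadm, the medium-chain acyl-CoA dehydrogenase, stood at 86.1, 70.9 and 87.6 CPM in preadipocytes and 549, 655 and 548 CPM in WT_CM, a change of 2.84 ± 0.13. Idh3a, of the citric acid cycle, stood at 79.1, 73.4 and 71.3 and 401, 414 and 393 CPM and rose by 2.43 ± 0.10. For both genes preadipocyte replicate 5 lay with the other preadipocytes, unlike for Adipoq. Dbt, a subunit of the branched-chain keto acid dehydrogenase, rose by 3.32 ± 0.25, and Aldh6a1, of valine breakdown, by 3.53 ± 0.13. Cpt1a, the form of the fatty acid importer typical of liver, fell by -0.68 ± 0.14, from 78.1 ± 2.64 to 48.5 ± 5.08 CPM, with 25.6 ± 3.29 CPM in regular_diff. Against regular_diff, 21 of the 30 oxidation genes were lower in WT_CM and 1 higher, where 4.18% and 5.73% of all genes were.

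Of the 13 thermogenic genes listed, 6 were in the table and 4 were tested, and the 4 were higher. Cox8b, a cytochrome oxidase subunit of brown fat and muscle, had a count ratio of 35.8 (95% interval from counting 11.9 to 176), or 65.7 (11.54 to 2616) without preadipocyte replicate 4. Cox7a1, another such subunit, rose by 4.73 ± 0.39 (4.03 ± 0.33 without preadipocyte replicate 4, 5.31 ± 0.47 without replicate 6). Kcnk3, a potassium channel, rose by 4.97 ± 0.22. Cox8b stood at 20.7 ± 3.48 CPM in WT_CM and 73.2 ± 5.76 CPM in regular_diff, lower by -1.81 ± 0.20 (WT_CM minus regular_diff, adjusted p 2.74e-07 by edgeR). Ucp1, the uncoupling protein, was not in the table. The adipocyte genes with a log2 value in this and the 2 paragraphs before it had Benjamini-Hochberg adjusted p-values no larger than 0.000184 in edgeR's quasi-likelihood test.

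**Figure D2:**
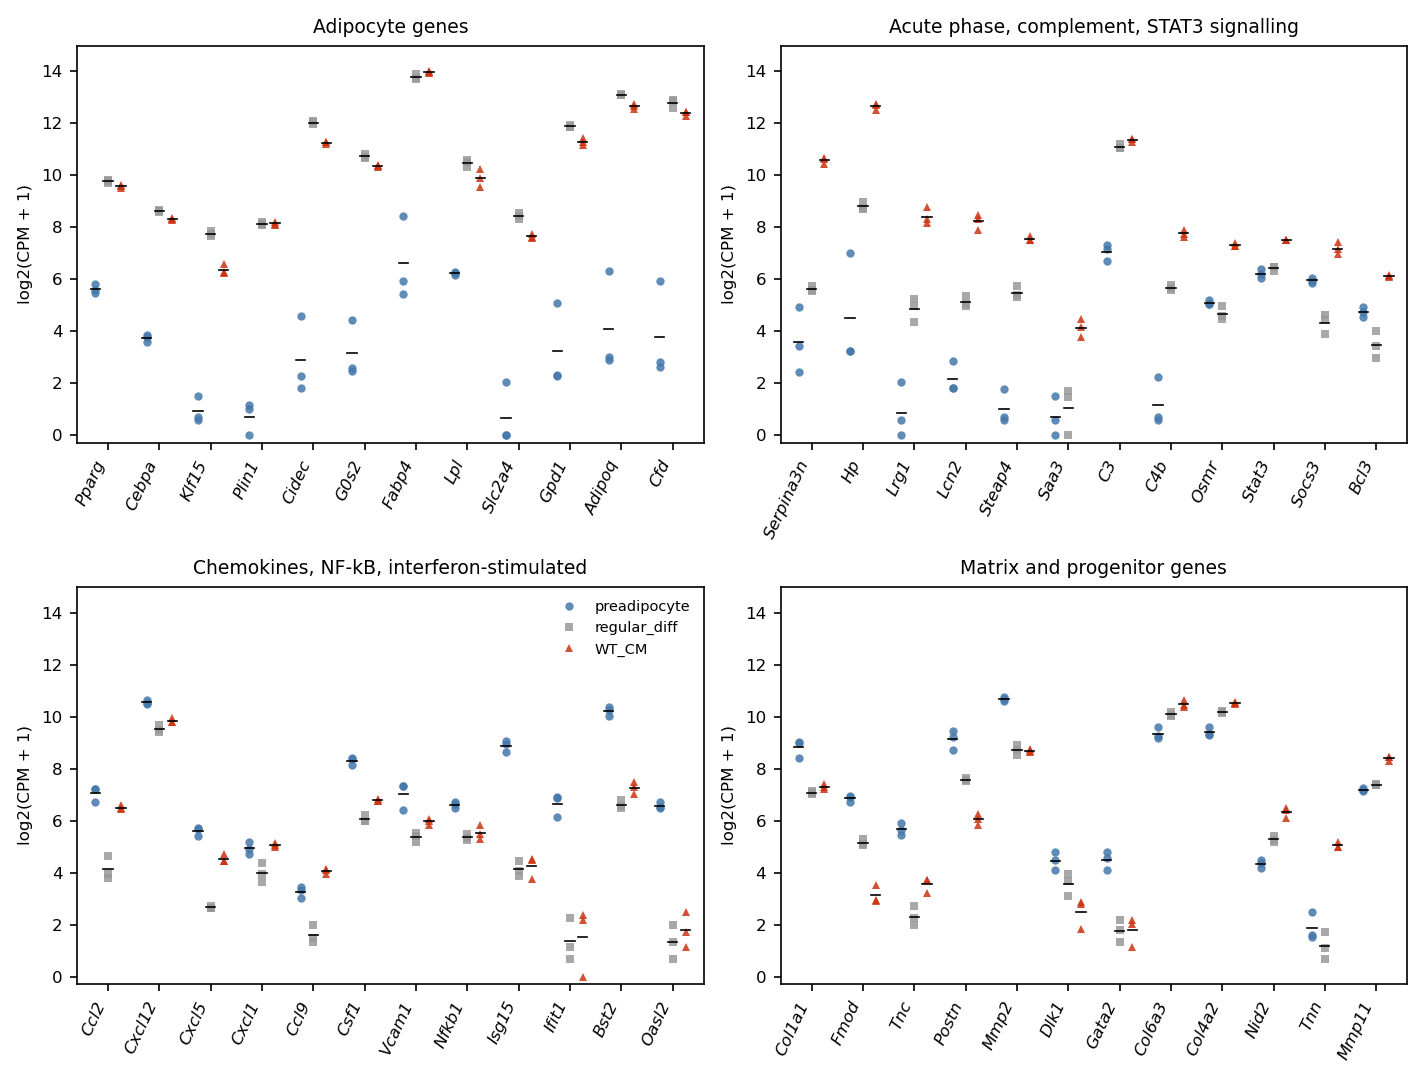
Level of named genes in each library as log2(CPM + 1), with a bar at the mean of 3 libraries per group (preadipocyte, blue circles; regular_diff, grey squares; WT_CM, red triangles). Adipocyte genes are high in both differentiated groups, acute phase genes are highest in WT_CM, interferon-stimulated genes are low in both differentiated groups, and 1 preadipocyte library, replicate 5, lies above the other 2 for Hp, Adipoq, Cfd and Cidec.

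Inflammatory genes moved in both directions. The 10 lists held 240 genes, 184 of them in the table and 166 tested. Of these 61 were higher in WT_CM than in preadipocytes and 60 lower, with a median of -0.10 against -0.04 over all genes tested; 36.7% were higher where 23.1% of all genes were, and 36.1% lower where 24.1% were. Against regular_diff, 60 of the 166 were higher in WT_CM and 6 lower, where 5.73% and 4.18% of all genes were called (9.91% either way).

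The acute phase list stood out by size, with 14 of 18 tested genes higher and 1 lower (median 4.59). Hp, haptoglobin, which binds free haemoglobin, stood at 8.51, 129 and 8.43 CPM in preadipocyte replicates 4, 5 and 6 and at 6717, 5802 and 6899.6 CPM in WT_CM. Replicate 5 was 15.2 times the mean of the other preadipocyte libraries, and the lowest WT_CM library was still far above it. Hp rose by 7.08 ± 0.95, and by 9.54 ± 0.31 without replicate 5. Serpina3n, a secreted inhibitor of serine proteases, stood at 4.50, 29.8 and 9.73 CPM in preadipocytes, 46.8, 52.7 and 45.9 CPM in regular_diff and 1407, 1579.9 and 1612 CPM in WT_CM. Only the WT_CM libraries passed 100 CPM among these 3 groups, and the change against preadipocytes was 6.74 ± 0.44 (7.77 ± 0.19 without replicate 5).

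Lrg1, a secreted glycoprotein of the acute phase, had 1, 5 and 0 counts in preadipocytes and 556, 737 and 554 in WT_CM, a change of 8.11 ± 0.55. Where replicate 5 is left out and at most 3 preadipocyte counts remain, a count ratio with its 95% counting interval is given in brackets here, and for Lrg1 it was 1217, 218 to 48081. Lcn2, lipocalin-2, which binds bacterial siderophores, stood at 2.50, 6.22 and 2.59 CPM and 316, 356 and 240.2 CPM and rose by 6.33 ± 0.23; it stood at 34.4 ± 4.98 CPM in regular_diff. Steap4, a metalloreductase of the adipocyte membrane, rose by 7.24 ± 0.27 (334, 92.3 to 2764) and Itih4, a plasma protein of the acute phase, by 6.33 ± 0.27 (175, 59.7 to 850.4). Serpina3c, a relative of Serpina3n, rose by 5.06 ± 0.44 and Mt2, a metallothionein, from 583 ± 108 to 1885 ± 169.7 CPM, by 1.69 ± 0.12. Saa3, the serum amyloid A gene made by fat cells, rose from 0.500, 1.87 and 0 CPM to 12.8, 17.2 and 21.3 CPM, by 4.31 ± 0.57 (59.9, 10.5 to 2393), and Lbp, which carries bacterial lipopolysaccharide, had a count ratio of 35.0 (95% interval from counting 9.34 to 294). Both preadipocyte counts of Lbp came from replicate 6, without which it was at least 16.3-fold higher; without replicate 4 the ratio was 21.4 (5.71 to 180.0). Orm1, an orosomucoid, rose by 7.41 ± 0.30 (514, 92.1 to 20346), and other genes share 38.3% of its 3′ stretches and 11.3% of those of Saa3. The member that fell was Ptx3, a long pentraxin, at 249.7, 229 and 226 CPM and 122, 126 and 144 CPM, by -0.85 ± 0.11. All of these changes had Benjamini-Hochberg adjusted p-values no larger than 0.000279 in edgeR's quasi-likelihood test.

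Conditioned and regular adipocytes differed in this list. Against regular_diff, 13 of the 18 were higher in WT_CM and 3 lower (median 1.73), where 5.73% and 4.18% of all genes were. Hp was higher by 3.84 ± 0.80, Serpina3n by 4.99 ± 0.38, Lrg1 by 3.56 ± 0.34, Lcn2 by 3.13 ± 0.17 and Saa3 by 3.65 ± 0.53, or 3.02 ± 0.52 without regular_diff replicate 6 (WT_CM minus regular_diff; adjusted p at most 0.0180 in the quasi-likelihood test of edgeR). The call for Hp was lost without any 1 of the regular_diff libraries or WT_CM replicate 3, with adjusted p-values of 0.0534 to 0.0879 by edgeR, and was 2.82e-07 without preadipocyte replicate 5, although its levels in the 2 groups did not overlap (426, 421 and 509 CPM in regular_diff). Orm1 was lower in WT_CM than in regular_diff, by -0.79 ± 0.14 (adjusted p 0.000199 by edgeR). Slpi, an inhibitor of leukocyte proteases, stood at 37.0, 46.6 and 56.4 CPM in preadipocytes, 7.29, 7.52 and 8.71 CPM in regular_diff and 82.9, 119 and 102 CPM in WT_CM. Its order was regular_diff lowest and WT_CM highest with no overlap, and WT_CM was above preadipocyte by 1.12 ± 0.16.

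The 250 bases before the start of 15 tested acute phase genes were read from RefSeq (GRCm38.p6, the build mm10), and 3 of those that rose are shown because their windows hold the motif TTGCNNAA of C/EBP factors, in capitals, in the direction of transcription. The match lies 99 to 92 bases before the start in Saa3, 216 to 209 in Lcn2 and 87 to 80 in Steap4.
Saa3, chr7:46715677-46715926, minus strand: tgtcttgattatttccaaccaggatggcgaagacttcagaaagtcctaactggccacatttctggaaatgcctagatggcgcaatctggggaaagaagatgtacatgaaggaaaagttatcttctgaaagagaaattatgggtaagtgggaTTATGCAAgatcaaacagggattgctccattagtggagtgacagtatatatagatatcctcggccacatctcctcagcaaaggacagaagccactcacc
Lcn2, chr2:32387740-32387989, minus strand: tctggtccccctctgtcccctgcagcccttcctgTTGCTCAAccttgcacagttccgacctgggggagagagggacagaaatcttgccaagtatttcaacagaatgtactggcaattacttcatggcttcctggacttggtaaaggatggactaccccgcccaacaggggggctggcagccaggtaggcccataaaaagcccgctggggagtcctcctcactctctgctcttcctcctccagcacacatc
Steap4, chr5:7960222-7960471, plus strand: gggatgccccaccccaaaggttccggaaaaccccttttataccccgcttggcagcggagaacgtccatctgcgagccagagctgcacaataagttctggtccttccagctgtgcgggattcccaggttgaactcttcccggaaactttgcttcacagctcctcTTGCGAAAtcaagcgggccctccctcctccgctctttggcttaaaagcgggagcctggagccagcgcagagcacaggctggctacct
On either strand TTGCNNAA was found in 9 of the 15 windows, and in 8.95% of the windows of 7668 tested genes. The 9 are those of Saa3, Lcn2, Steap4, Orm2, Mt2 and Slpi, which rose, of Ptx3, which fell, and of Orm3 and Cp, which were not called. The motif TTCNNNGAA of STAT factors was found in 3 of the 15 and in 6.81% of all. The printed matches overlap no match of another motif searched, though the window of Steap4 also holds TTCNNNGAA and that of Saa3 also holds the interferon-stimulated response element. Serpina3n and Lrg1 have windows without TTGCNNAA, and windows of Hp and Lbp were not used here. A match is a description of letters, and no match says only that these letters are not in this window.

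JAK kinases and STAT3 carry the signal of gp130 cytokines, which is known in liver to raise acute phase genes. In the list of JAK, STAT3 and feedback genes 9 of 15 were higher, 3 were lower and 3 were not called (median 0.97). Of the list 60% were thus higher and 20% lower, where 23.1% and 24.1% of all genes were. Stat3, the transcription factor itself, stood at 83.1, 65.9 and 72.6 CPM in preadipocytes, 89.3, 79.0 and 88.3 CPM in regular_diff and 182, 181 and 184 CPM in WT_CM, up by 1.30 ± 0.12 over preadipocytes. Socs3, the feedback inhibitor of that pathway, stood at 61.1, 57.2 and 66.2 CPM, 14.0, 21.1 and 23.8 CPM and 142, 124 and 172 CPM in the same order. WT_CM was highest and regular_diff lowest without overlap, so Socs3 was above preadipocytes in WT_CM (1.25 ± 0.14) and below them in regular_diff (-1.64 ± 0.19, adjusted p 1.76e-08 by edgeR). Cish, a feedback gene of STAT5, rose by 3.02 ± 0.26, Bcl6, a repressor that STAT factors control, by 2.88 ± 0.25, Pim1, a kinase induced by cytokines, by 2.27 ± 0.42, and the AP-1 genes Fos and Junb by 2.03 ± 0.21 and 0.97 ± 0.14. Jak2, the kinase, rose by 0.76 ± 0.17. Socs2 fell by -1.32 ± 0.14 and Pias3, an inhibitor of STAT3, by -1.13 ± 0.17. Tyk2, another JAK kinase, was lower too, by -0.56, and by -0.53 without preadipocyte replicate 5. Jak1 was not called (-0.03). Socs2 shares part of its 3′ end with other genes and is uncertain. The calls of Jak2 and Pias3 were lost with counts thinned to the smallest library.

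Receptors for cytokines and microbial patterns gave 10 of 21 higher and 6 lower (median 0.45). That is 47.6% higher, where 23.1% of all genes were, and 28.6% lower, close to the 24.1% of all genes. Osmr, the receptor chain for oncostatin M, stood at 36.0, 32.3 and 32.4 CPM in preadipocytes, 30.4, 23.3 and 21.5 CPM in regular_diff and 157, 167 and 157 CPM in WT_CM, with every WT_CM library above all others. It rose by 2.25 ± 0.13. Il6st, the shared gp130 chain that works with Osmr, was lower in WT_CM than in preadipocytes, by -0.38 ± 0.12, and higher than in regular_diff, by 0.95 ± 0.12 (adjusted p 3.51e-06 by edgeR). Tnfrsf1a, the main TNF receptor, rose from 303 ± 46.9 to 798 ± 16.8 CPM. Ifngr1, of the interferon-γ receptor, rose by 2.27 ± 0.14, Cd14, which presents lipopolysaccharide, by 1.94 ± 0.22, and Myd88, the adaptor of Toll-like receptors, by 0.72 ± 0.19. Il17ra and Il1rap, of the receptors for IL-17 and IL-1, fell by -0.96 ± 0.21 and -0.89 ± 0.21. Il11ra1, a receptor chain for IL-11, changed by -1.46, Tlr2, a Toll-like receptor, by -0.81 and Ifngr2, the other interferon-γ receptor chain, by -0.44. Without preadipocyte replicate 5 they changed by -1.13, -0.66 and -0.56, and Tlr2 was not called (adjusted p 0.0998 by edgeR). Other genes share 60.0% of the 3′ stretches of Il11ra1, so it is uncertain. The changes against preadipocytes in this and the preceding paragraph, and the rise of Slpi, had Benjamini-Hochberg adjusted p-values no larger than 0.00849 in edgeR's quasi-likelihood test. That limit does not cover Tyk2, Jak1, Il11ra1, Tlr2 and Ifngr2.

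Complement genes gave 3 of 10 higher and 3 lower (median -0.37), 30% each, not far from the 23.1% and 24.1% of all genes. C3, the central component, stood at 145, 159 and 103 CPM in preadipocytes and 2507, 2687 and 2689 CPM in WT_CM, up by 4.27 ± 0.13, and at 2345, 2112 and 2147 CPM in regular_diff. C4b, of the classical pathway, rose by 7.05 ± 0.28 (count ratio without replicate 5 385, 106 to 3180.3) and Cfb, of the alternative pathway, by 3.83 ± 0.42; other genes share 36.8% and 88.6% of their 3′ stretches, so both are uncertain. The proteases that start the classical pathway were lower, C1s1 by -0.75 ± 0.12, C1ra by -0.45 ± 0.15 and C1rb by -0.43 ± 0.14, and these 3 are uncertain for the same reason. The calls of C1ra and C1rb were lost without WT_CM replicate 2. The count of lower genes was 6 without preadipocyte replicate 5 and 1 without WT_CM replicate 2.

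Chemokines were mostly lower than in preadipocytes, with 1 of 11 higher and 6 lower (median -0.58), yet higher than in regular_diff in 6 of 11, where 5.73% of all genes were. Ccl2, the monocyte attractant MCP-1, stood at 148, 104 and 149 CPM in preadipocytes, 17.0 ± 5.86 CPM (mean ± SD, n = 3) in regular_diff and 95.7, 87.3 and 85.3 CPM in WT_CM. The 3 groups did not overlap, with WT_CM between the other two, lower than preadipocytes by -0.58 ± 0.15 and higher than regular_diff by 2.37 ± 0.20 (adjusted p 3.2e-09 by edgeR). Cxcl5, a neutrophil attractant, had the same order, at 51.5, 41.7 and 50.6, 5.47, 5.27 and 5.23 and 25.1, 20.8 and 20.7 CPM, and a change of -1.11 ± 0.18. Cxcl12, the stromal chemokine that retains blood progenitors, fell from 1503 ± 90.2 to 911 ± 57.2 CPM, by -0.72 ± 0.10. Ccl5 and Cxcl10, both also interferon-induced, fell by -2.65 ± 0.36 and -2.77 ± 0.41. Cxcl1 stood at 25.0, 29.2 and 35.0 CPM and 33.8, 30.9 and 32.3 CPM, overlapping, and was not called (0.13 ± 0.21, adjusted p 0.650 in the quasi-likelihood test of edgeR). Ccl9, a myeloid attractant, was the member called higher, at 9.01, 9.95 and 7.13 CPM and 16.4, 14.2 and 16.1 CPM (0.83 ± 0.30). That call was lost without preadipocyte replicate 4 or 6 or WT_CM replicate 1 or 3, and by DESeq2 (adjusted p over the alternatives 0.0157 to 0.0983).

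Cytokines and growth factors gave 6 of 15 higher and 3 lower (median -0.17). That is 40% higher and 20% lower, where 23.1% and 24.1% of all genes were. Vegfa, which drives vessel growth, stood at 142, 153 and 122 CPM in preadipocytes and 445, 445 and 461 CPM in WT_CM and rose by 1.70 ± 0.10. Il33, an alarmin, was low in every library but rose from 1.00, 1.24 and 1.95 to 9.72, 15.4 and 16.1 CPM, by 3.25 ± 0.48. Il1rn, the antagonist of the IL-1 receptor, had 0 counts in preadipocytes and 4, 7 and 11 in WT_CM, at least 7.03-fold higher. Mif, a macrophage factor, rose by 0.99 ± 0.11, with 55.3% of its 3′ stretches shared with other genes. Csf1, the growth factor of macrophages, fell from 338, 282 and 329 CPM to 107, 108 and 111 CPM, by -1.54 ± 0.11, and Tgfb3 by -1.93 ± 0.23.

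NF-kB subunits, feedback genes and targets gave 5 of 19 higher and 5 lower (median -0.05), shares close to those of all genes. Bcl3, a nuclear partner of the p50 and p52 subunits, stood at 22.5, 29.8 and 25.9 CPM in preadipocytes, 15.2, 9.78 and 6.97 CPM in regular_diff and 69.1, 71.2 and 66.8 CPM in WT_CM, highest in WT_CM without overlap, and rose by 1.41 ± 0.18. Tnip1, an inhibitor of the pathway, rose by 1.43 ± 0.12, and Nfkbiz, a nuclear cofactor, by 0.73 ± 0.21, a call lost with counts thinned to the smallest library. Nfkb1, the p50 subunit, fell by -1.07 ± 0.15 and Nfkbie, an inhibitor, by -2.22 ± 0.32. Vcam1, an adhesion molecule, fell by -1.13 ± 0.35, but was not called without preadipocyte replicate 4 or 6 or any 1 of the WT_CM libraries. The count of lower genes ranged from 2 to 5 with a library left out, 2 without WT_CM replicate 2 and 3 without preadipocyte replicate 4 or 6 or WT_CM replicate 3. The log2 values of the complement, chemokine, cytokine and NF-kB genes called here had Benjamini-Hochberg adjusted p-values no larger than 0.0259 in edgeR's quasi-likelihood test against preadipocytes.

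**Figure D3:**
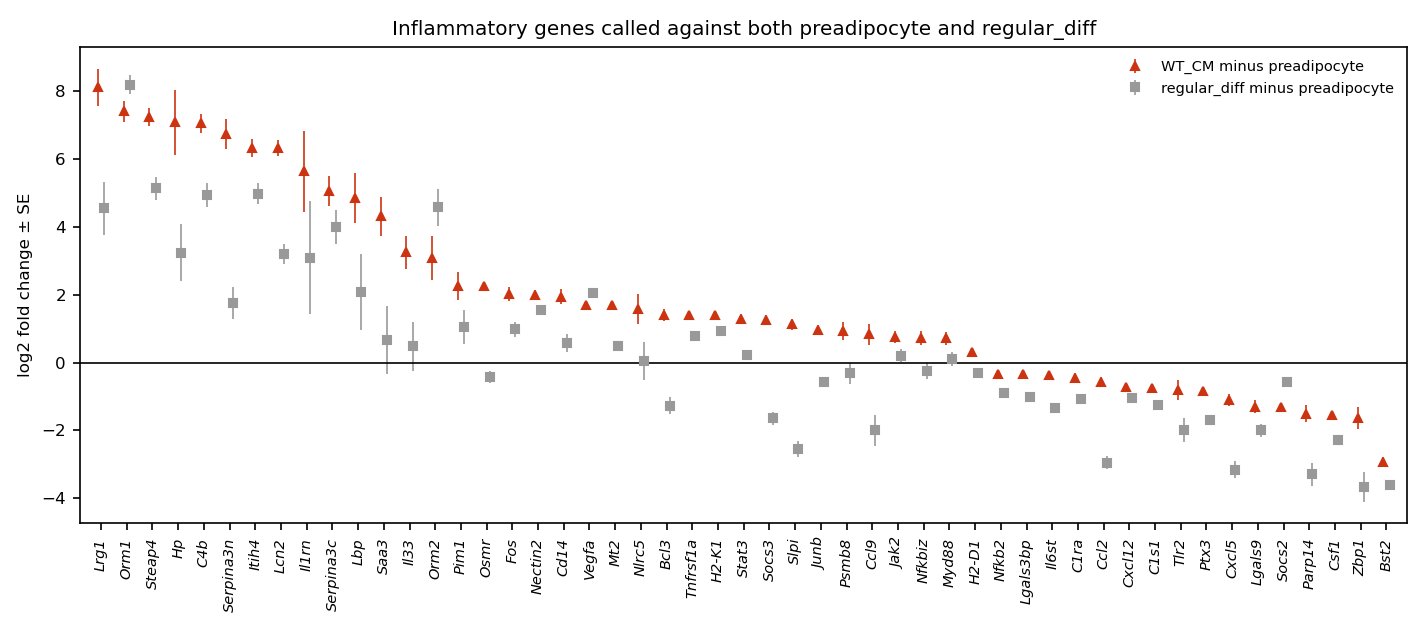
Log2 fold change ± SE of 51 inflammatory genes called both against preadipocyte and against regular_diff libraries, as WT_CM minus preadipocyte (red triangles) and regular_diff minus preadipocyte (grey squares), both against the same preadipocyte libraries. Most acute phase genes lie at the left with the red point above the grey one, Orm1 and Orm2 with the grey above the red, and Osmr, Bcl3, Socs3, Slpi, Junb, Ccl9 and H2-D1 are called above 0 in red and below 0 in grey.

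The interferon-stimulated genes fell almost as a block. Of 46 listed, 39 were in the table and 34 were tested; 30 were lower in WT_CM, 26 of them at least 2-fold, and 0 higher, with a median of -2.04. Isg15, a ubiquitin-like protein that interferon induces, stood at 530.0, 486 and 398 CPM in preadipocytes and 21.5, 12.5 and 21.9 CPM in WT_CM, a change of -4.65 ± 0.17. Ifit1, which binds viral RNA, stood at 118, 115 and 68.7 CPM and 4.09, 0 and 3.46 CPM, a change of -5.24 ± 0.40. For both genes every WT_CM library lay below every preadipocyte library. Oasl2, of the oligoadenylate synthetase family, fell by -5.05 ± 0.29 (-5.70 ± 0.37 without WT_CM replicate 1), Mx2, a dynamin-like antiviral protein, by -4.08 ± 0.39 (-5.34 ± 0.47 without WT_CM replicate 2), and Mx1 had a count ratio of 85.6 (95% interval from counting 14.9 to 3422) in favour of preadipocytes. The single WT_CM count of Mx1 came from replicate 3, without which it was at least 19.3-fold lower; without WT_CM replicate 1 the ratio was 54.5 (9.51 to 2178). GENCODE vM21 lists Mx2 as a polymorphic pseudogene. Ifit3 fell by -4.27 ± 0.52, with preadipocyte replicate 5 below the other two (118, 39.8 and 92.1 CPM). Bst2, tetherin, which holds budding viruses at the membrane, stood at 1177 ± 139.8 CPM in preadipocytes and 154 ± 26.0 CPM in WT_CM, a change of -2.93 ± 0.13. In regular_diff 32 of the 34 were lower than in preadipocytes and 1 higher, against the same preadipocyte libraries and with 26.4% and 24.8% of all genes so called (51.2% either way). Between WT_CM and regular_diff 4 of the 34 were called, where 9.91% of all genes were. They were higher in WT_CM: Bst2, Parp14, Zbp1 and Lgals3bp. The call of Zbp1 was lost without regular_diff replicate 4 or 5 or WT_CM replicate 1 (adjusted p 0.0558 to 0.0733 by edgeR), and those of Zbp1 and Parp14 with counts thinned to the smallest library. The log2 falls had Benjamini-Hochberg adjusted p-values no larger than 4.66e-05 in edgeR's quasi-likelihood test, and other genes share 10.6% of the 3′ stretches of Isg15 and 21.3% of those of Ifit3.

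The 3 promoters below, again 250 bases of RefSeq on GRCm38.p6 in the direction of transcription, belong to genes among the largest falls and show the interferon-stimulated response element, searched on either strand as a direct repeat of GAAA with 2 bases between, in capitals. Isg15 holds 3 overlapping matches between 78 and 57 bases before the start, Ifit1 holds matches at 104 to 95 and 85 to 76 bases, and Ifit3 at 156 to 147 and 122 to 113 bases.
Isg15, chr4:156200819-156201068, minus strand: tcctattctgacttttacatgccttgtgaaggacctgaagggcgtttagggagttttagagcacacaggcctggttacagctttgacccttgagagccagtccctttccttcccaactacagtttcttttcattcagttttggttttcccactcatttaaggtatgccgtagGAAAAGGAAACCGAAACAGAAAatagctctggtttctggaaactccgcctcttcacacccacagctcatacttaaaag
Ifit1, chr19:34640639-34640888, plus strand: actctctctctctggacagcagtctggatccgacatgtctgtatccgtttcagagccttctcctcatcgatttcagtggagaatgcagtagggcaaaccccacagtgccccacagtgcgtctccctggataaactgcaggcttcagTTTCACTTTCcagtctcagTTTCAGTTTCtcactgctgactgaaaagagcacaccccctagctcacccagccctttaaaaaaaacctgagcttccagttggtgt
Ifit3, chr19:34583279-34583528, plus strand: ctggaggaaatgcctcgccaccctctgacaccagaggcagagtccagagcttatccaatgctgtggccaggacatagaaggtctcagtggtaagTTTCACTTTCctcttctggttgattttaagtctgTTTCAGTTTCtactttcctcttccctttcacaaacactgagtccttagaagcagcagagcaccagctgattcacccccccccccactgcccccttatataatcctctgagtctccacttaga
The element was found in the windows of 11 of 24 tested interferon-stimulated genes with a sequence and of 3.10% of 7668 tested genes. The fourth motif searched, a direct repeat of AGGTCA with 1 base between, which PPARγ binds, was found in 1 of the 7668 windows.

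MHC class I presentation went the other way from the interferon-stimulated list, with 9 of 15 higher and 0 lower (median 0.61). B2m, the class I light chain, and Tap1 were not called (-1.27 and -0.34). In preadipocyte replicate 5 the level of B2m was 0.0728 times the mean of the other preadipocyte libraries, and without that replicate its change was -1.82 ± 0.89. H2-K1, a classical class I heavy chain, stood at 254, 238 and 232 CPM in preadipocytes, 473, 406 and 506 CPM in regular_diff and 659.7, 622 and 626 CPM in WT_CM, rising in that order without overlap, and was called. H2-D1, another, stood at 936, 888 and 753, 707, 698 and 677 and 1016, 1199 and 1007 CPM and rose by 0.32 ± 0.10, a call lost without preadipocyte replicate 6 or WT_CM replicate 2 and with scaling by library size alone. Psmb8, an immunoproteasome subunit, rose by 0.94 ± 0.26 and Nlrc5, the class I transactivator, by 1.58 ± 0.45. Other genes share 25.5% and 34.6% of the 3′ stretches of H2-K1 and H2-D1. Of the checkpoint and suppressive surface genes 4 of 8 were higher and 3 lower, 50% and 37.5%, where 23.1% and 24.1% of all genes were. Vsir, the ligand VISTA, rose by 5.85 ± 0.34 (count ratio without replicate 5 256, 45.6 to 10121), Pvr and Nectin2, ligands of the TIGIT receptor, by 2.16 ± 0.19 and 1.99 ± 0.15, and Lgals3, galectin-3, by 1.23 ± 0.11. Cd276, the ligand B7-H3, fell by -1.79 ± 0.20 and Lgals9, galectin-9, by -1.30 ± 0.18. Cd274, the ligand PD-L1, had 2, 5 and 2 counts in preadipocytes and 6, 12 and 9 in WT_CM, too few to be tested. The called changes had Benjamini-Hochberg adjusted p-values no larger than 0.0122 in edgeR's quasi-likelihood test.

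Genes of the stromal starting state fell as the adipocyte genes rose. Over 6 lists, 110 of 133 genes were tested, and 17 were higher and 68 lower in WT_CM (median -0.83). These were 15.5% and 61.8%, where 23.1% and 24.1% of all genes were. Progenitor genes gave 13 of 16 lower and 0 higher (median -1.46). Dlk1, the preadipocyte factor Pref-1, fell from 21.5, 16.2 and 26.6 CPM to 2.56, 5.94 and 6.34 CPM, by -2.12 ± 0.33, with 14.6, 7.52 and 11.6 CPM in regular_diff. It was called lower than in regular_diff as well (-1.22 ± 0.37, adjusted p 0.0308), a call lost without regular_diff replicate 4 or 6 or WT_CM replicate 1 or 2. Gata2, which holds back adipogenesis, fell by -3.04 ± 0.37 and Pdgfrb, a receptor of mural and progenitor cells, by -1.93 ± 0.15.

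Fibrillar matrix gave 16 of 23 lower and 5 higher (median -1.02). The share lower was 69.6%, where 24.1% of all genes were, and the share higher 21.7%, close to the 23.1% of all genes. Col1a1, of type I collagen, fell from 508, 339 and 521 CPM to 155, 145 and 167 CPM, by -1.55 ± 0.15, Fmod, fibromodulin, by -3.87 ± 0.21, and Postn, periostin, by -3.11 ± 0.30. Col6a3 and Col6a1, of type VI collagen, which surrounds fat cells, rose by 1.14 ± 0.11 and 0.67 ± 0.10. Tnn, tenascin-N, stood at 2.00, 1.87 and 4.54 CPM in preadipocytes, 0.607, 2.26 and 1.16 CPM in regular_diff and 30.7, 35.0 and 30.5 CPM in WT_CM, with the WT_CM libraries alone above 30 CPM among these groups, and rose by 3.52 ± 0.35. Basement membrane genes, which wrap each fat cell, gave 8 of 14 higher and 3 lower (median 0.59), with Col4a2 up by 1.12 ± 0.10, Col15a1 by 3.95 ± 0.26 and Nid2 by 2.05 ± 0.18. In this list 57.1% were higher, where 23.1% of all genes were, and 21.4% lower, close to the 24.1% of all genes.

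Matrix proteases and inhibitors gave 9 of 19 lower and 3 higher (median -0.89). That is 47.4% lower and 15.8% higher, where 24.1% and 23.1% of all genes were. Mmp9, a gelatinase, went from 91, 78 and 54 counts in preadipocytes to 2, 1 and 1 in WT_CM, a change of -5.71 ± 0.40, Mmp2, another, fell by -1.98 ± 0.11 and Timp2, an inhibitor of both, by -2.07 ± 0.11. Mmp11, another matrix metalloproteinase, rose by 1.21 ± 0.10 and stood higher in WT_CM than in regular_diff too, by 1.02 ± 0.10 (adjusted p 2.36e-08 by edgeR). Contractile and actin genes gave 12 of 15 lower and 1 higher (median -1.50), Acta2, smooth muscle actin, by -2.63 ± 0.32 and Myl9, a myosin light chain, by -3.12 ± 0.28. Genes of DNA replication and mitosis gave 15 of 23 lower and 0 higher (median -0.55), 2 of them at least 2-fold, and 9 were lower without WT_CM replicate 1; Mcm2, of the replicative helicase, fell by -1.07 ± 0.15. The stromal changes against preadipocytes had Benjamini-Hochberg adjusted p-values no larger than 2e-05 in edgeR's quasi-likelihood test.

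Among the 10 largest rises with a mean of at least 20 CPM and groups that do not overlap, Hcar2, Plin1 and Aqp7 are described above. This order rests on fitted values, which depend on the prior count where preadipocyte counts are few. With genes at 0 counts set at their floor, Cyb561, Wfdc21, Plin1 and Ghrh stayed among the 10 largest, and without preadipocyte replicate 5 Hcar2, Cyb561, Wfdc21 and Ghrh did. Groups did not overlap upwards in 26.7% of all genes tested and downwards in 28.8%. Cyb561, a cytochrome b561 that passes electrons to ascorbate in vesicles, had a count ratio of 708 (95% interval from counting 127 to 27999.9). Its single preadipocyte count came from replicate 5, without which it was at least 162-fold higher; without replicate 4 the ratio was 433 (77.5 to 17133). Wfdc21, a gene with a whey acidic protein domain like that of Slpi, stood at 0, 2.49 and 0 CPM in preadipocytes, 152, 172 and 156 CPM in regular_diff and 339, 390.1 and 368 CPM in WT_CM, highest in WT_CM without overlap. Its change was 8.73 ± 0.33, and 8.07 ± 0.33 without preadipocyte replicate 4; without replicate 5 it was at least 429.9-fold higher. Ghrh, the growth hormone releasing hormone, had a count ratio of 439 (95% interval from counting 78.4 to 17367). Its single preadipocyte count was in replicate 5 too, without which it was at least 100.6-fold higher; without replicate 4 the ratio was 268 (47.9 to 10627). Aldh3b2, an aldehyde dehydrogenase, Cyp2ab1, a cytochrome P450, Dmkn, dermokine, and Rprml had 0 counts in preadipocytes and were at least 78.6-fold, 60.0-fold, 46.3-fold and 46.3-fold higher. Dmkn stood at 6.07, 2.26 and 3.48 CPM in regular_diff and 23.5, 32.7 and 25.3 CPM in WT_CM. The largest falls were, beside Mmp9, Ifit1, Ifit3, Oasl2, Isg15 and Mx2, those of Ptprv, a receptor-type tyrosine phosphatase, with a count ratio of 235 (95% interval from counting 41.7 to 9317) in favour of preadipocytes, Gpr149, an orphan receptor, by -4.55 ± 0.39, Cd74, the invariant chain of MHC class II, by -4.15 ± 0.22, and Scrn1 by -4.02 ± 0.39. The log2 values of Wfdc21, Gpr149, Cd74 and Scrn1 had an adjusted p of at most 1.76e-09 by edgeR. The single WT_CM count of Ptprv came from replicate 3, without which it was at least 53.0-fold lower; without WT_CM replicate 1 the ratio was 149 (26.6 to 5929.8). GENCODE vM21 lists Ptprv as a processed transcript, not as protein-coding. Of the 10 largest falls 9 stayed among the 10 largest without preadipocyte replicate 5. Cd74 stood at 123, 97.6 and 132 CPM in preadipocytes and 6.65, 5.94 and 6.91 CPM in WT_CM, with no overlap.

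Preadipocyte replicate 5 was left out as a check. A set of 126 genes was at least 8-fold higher in WT_CM and had at least 10 counts over the preadipocyte libraries. At the median, their level in replicate 5 was 1.36 times the mean of replicates 4 and 6. It was above that mean in 93 genes (73.8%). Over all genes the median was 1.02, and 52.2% of genes were above that mean. Counts of replicate 5 entered the choice of the set, so genes high in replicate 5 alone could pass, and the set is no independent measure of it. With replicate 5 left out 4540 genes were called, 2170 higher and 2370 lower. Of the genes, 4083 were called both ways, 402 only with all libraries and 457 only without replicate 5, none in opposite directions. Rises of adipocyte and acute phase genes that replicate 5 also carried became larger, among them Adipoq, Hp and Retn, while Pparg (to 4.05 ± 0.14), Isg15 (to -4.65 ± 0.16) and Ccl2 (to -0.75 ± 0.14) moved little. The acute phase list kept 14 higher and 1 lower of 18, and the interferon-stimulated list had 32 of 36 tested genes lower and 0 higher.

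**Figure D4:**
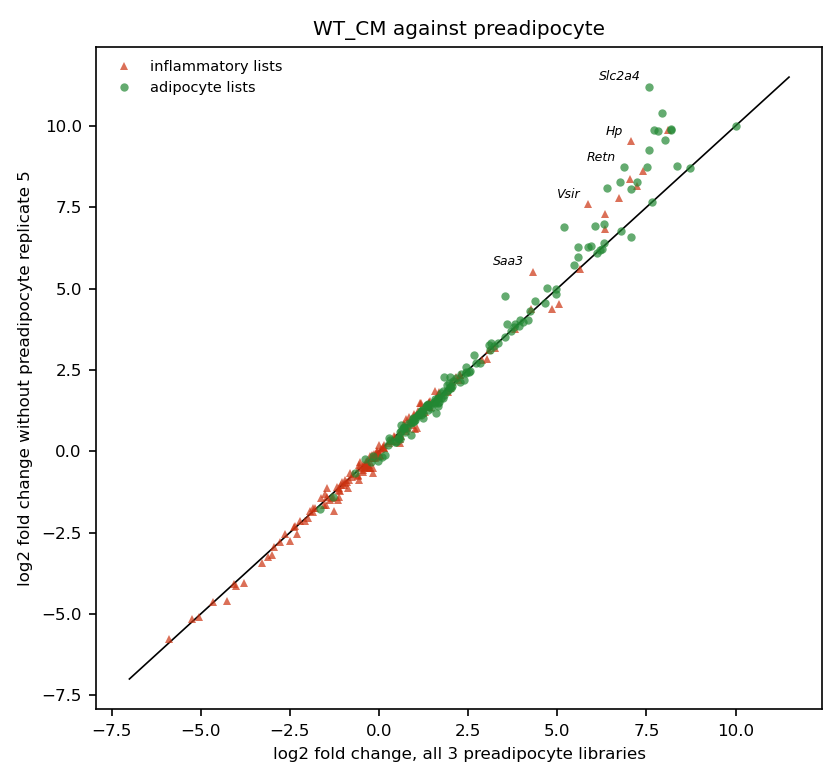
Log2 fold change of WT_CM minus preadipocyte with all 3 preadipocyte libraries (horizontal) and without preadipocyte replicate 5 (vertical), for 143 adipocyte genes (green circles) and 166 inflammatory genes (red triangles), with the line of equality. Most genes lie close to the line, and genes with large rises such as Hp, Retn and Slc2a4, whose fitted value without replicate 5 rests on 0 counts in the preadipocytes, lie above it.

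By GENCODE vM21 coordinates (mm10), the protein-coding Hp gene lies on chromosome 8 from 109575128 to 109579172, Serpina3n on chromosome 12 from 104406729 to 104414329, Lrg1 on chromosome 17 from 56119678 to 56122001, Osmr on chromosome 15 from 6813577 to 6874969, Socs3 on chromosome 11 from 117966079 to 117970047 and Plin1 on chromosome 7 from 79720218 to 79732903.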

How the data were processed

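RNA of the 12 samples was measured by MARS-seq. The authors deposited whole-number counts per gene for 12 libraries in 1 table of 11035 genes, each reaching at least 6 counts in some library, and beside them log2 fold changes and adjusted p-values of their own comparisons, which were used only where the authors' deposited table is named. The submitters' processing notes list cutadapt, HTSeq, DESeq2 and the build mm10; neither versions nor the annotation are given in the sources used here.

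Samples were grouped by their labels. Counts were fitted with edgeR 4.0.16 (R 4.3.3; TMM scaling, expression filter by group, robust quasi-likelihood test) over the 12 libraries with 4 group means, which share 1 estimate of the spread, and p-values were adjusted by Benjamini-Hochberg over 9519 genes at a threshold of 0.05; 1516 genes were not tested. On simulated data for the same comparison (9278 genes) the test recovered 88% of 100 genes changed 2-fold and 100% of 100 changed 4-fold, and called 13 unchanged genes. The changed genes were drawn from well-counted genes only. Spread followed the trend over expression, and no simulated library stood apart as preadipocyte replicate 5 does. These shares therefore do not cover genes of few counts or of unusual spread. DESeq2 1.42.0, other scalings, filters, thinning and leaving out libraries were alternatives; those leaving out regular_diff replicates and those of the ranking were added after the data were seen. Replicate libraries differed beyond sampling noise, so none was counted as a duplicate.

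The comparison, the 25 gene lists and the named genes were chosen with earlier results of these data known. Genes named are a fixed set, up to 4 called members per list and direction by size of change, inflammatory genes called against both references, and the 10 largest rises and falls with at least 20 CPM in the higher group and no overlap. A gene with 0 counts in a group was set at a floor of 3 counts over the group; with 1 to 3 counts the ratio has a 95% exact counting interval. Intervals and floors cover counting error only. Genes sharing over 10% of 31-base stretches in the last 500 transcript bases with other genes (GENCODE vM21) are called uncertain. Drawings used matplotlib 3.10.9. Some items are not reported here.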

Additional observations from a re-analysis of the deposited data

Results flagged for a closer look

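For 7 inflammatory genes, the change from preadipocyte to WT_CM was upward and that from preadipocyte to regular_diff downward, with each change and the difference between them called by edgeR after Benjamini-Hochberg adjustment. Both changes use the same preadipocyte libraries. The log2 difference, WT_CM minus regular_diff, was 3.67 for Slpi, 2.89 for Socs3, 2.83 for Ccl9, 2.69 for Bcl3, 2.67 for Osmr, 1.55 for Junb and 0.63 for H2-D1, with the largest adjusted p among them 0.000107. Junb, an AP-1 factor, stood at 185, 298 and 227 CPM in preadipocyte, 154, 141 and 179 CPM in regular_diff and 440.1, 467 and 483 CPM in WT_CM libraries. The rises of Ccl9 and H2-D1 over preadipocytes are those that other settings ended, as given beside them above. The falls from preadipocyte to regular_diff were smallest for Osmr (-0.42, adjusted p 0.0348 by edgeR) and H2-D1 (-0.31, adjusted p 0.0153 by edgeR). Whether the falls in regular_diff hold under other settings was not examined.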

How the results depend on the processing

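No paired analysis was possible because WT_CM replicates are numbered 1 to 3 and preadipocyte and regular_diff replicates 4 to 6. Of the 176 genes followed by name, 22 lost their call against preadipocytes under at least 1 alternative and 0 reversed. Against regular_diff 35 of the 176 lost their call, 22 that had none gained one and 0 reversed. Against preadipocytes 4485 genes were called, 4007 to 4540 with 1 library left out, 3933 by DESeq2, 4785 with library size alone and 4712 with no filter. Counts thinned to 669007 per library, the smallest total, gave 1481 genes lower than preadipocytes, 2 adipocyte genes lower, and 497 genes called against regular_diff, 294 higher and 203 lower. Against regular_diff 943 genes were called (398 lower); only the 6 libraries of that comparison gave 1480 (698 lower), and leaving out preadipocyte replicate 5 with KO_CM replicate 1 gave 1445 (693 lower). With 1 library left out these counts ranged from 595 (without regular_diff replicate 4) to 1171 (without preadipocyte replicate 5) and from 228 to 531 lower, with 621 called (251 lower) without regular_diff replicate 6 and 236 lower without WT_CM replicate 3; the cause was not tested. Depth limits genes of few counts, for which ratios and floors are given.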
